A study of Mus musculus with 14 samples.

Results

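The NLRP3 inflammasome and interleukin 1 genes are 10 named genes of the 29737 gene names that the deposited tables of mouse liver RNA hold together: Nlrp3, Pycard, Casp1, Casp4, Gsdmd, Nek7, Il1b, Il1a, Il1rn and Il18. They were chosen by symbol, not by their values, and each of them stands in both bulk tables and in the table of nuclei. By its labels the study compared 3 bulk liver libraries of Ms4a7 KO mice with 3 of wild type mice, both fed for 22 weeks a NASH diet, which is meant to bring on nonalcoholic steatohepatitis, a fatty liver with inflammation. A second bulk table compared 3 libraries of wild type mice on chow given lipid droplets (LD) into the tail vein on 6 consecutive days with 3 of such mice given phosphate-buffered saline (PBS) in the same way. Another data set holds nuclei of Ms4a7 KO and of wild type livers on the NASH diet, as 1 library per genotype with 3 livers pooled in each. How the knockout was made, which cells lack the gene, and the age and sex of the animals are not given in the sources used here. Gene reads per bulk library ran from 21945394 to 23126164 in the table labelled KO and wild type and from 39318264 to 41346464 in the table labelled LD and PBS.

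NLRP3 is a cytosolic sensor that assembles with the adaptor ASC, made from Pycard, and with caspase-1 into the inflammasome, a complex that cuts the precursors of IL-1 beta and IL-18 into their active forms. Nek7 is a kinase that binds NLRP3 and is needed for its assembly, Casp4 encodes the mouse caspase that senses cytosolic endotoxin, and Gsdmd encodes the pore protein that both caspases cleave and through which the cytokines leave the cell. IL-1 alpha, made from Il1a, acts on the same receptor as IL-1 beta, and the antagonist made from Il1rn occupies that receptor without signalling. In liver the pathway is best known from macrophages and neutrophils, and the transcripts of the sensor and of the IL-1 beta precursor are induced by NF-kappaB before the complex is activated. Transcript levels do not measure cleavage or secretion.

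The promoters of the members that rose in the libraries labelled KO are shown here beside that of Nek7, a member that did not pass that test, so that the letters upstream of transcripts that did and did not pass can be read side by side. Each is the 250 bases before a RefSeq transcription start (build GRCm38.p6, with Nlrp3 at the start that lies further upstream and Il1rn at its most upstream start), written 5′ to 3′ along the gene. Capitals mark matches on either strand to 4 of 6 motifs searched: the TATA box TATAAA, the AP-1 motif TGANTCA, the kappaB motif GGGNNNNNCC and the PU box GAGGAA bound by myeloid ETS factors.
Il1b (chr2:129371140-129371389, minus strand): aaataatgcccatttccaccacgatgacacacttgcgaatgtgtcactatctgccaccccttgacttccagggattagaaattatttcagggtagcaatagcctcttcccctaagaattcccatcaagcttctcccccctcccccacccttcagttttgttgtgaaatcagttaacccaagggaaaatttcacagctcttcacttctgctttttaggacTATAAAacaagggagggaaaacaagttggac
Il1a (chr2:129309973-129310222, minus strand): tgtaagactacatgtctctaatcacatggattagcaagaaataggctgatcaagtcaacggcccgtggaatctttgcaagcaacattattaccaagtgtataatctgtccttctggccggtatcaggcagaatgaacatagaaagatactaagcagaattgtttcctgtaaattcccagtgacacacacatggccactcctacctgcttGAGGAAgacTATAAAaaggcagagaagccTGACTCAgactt
Il1rn (chr2:24336610-24336859, plus strand): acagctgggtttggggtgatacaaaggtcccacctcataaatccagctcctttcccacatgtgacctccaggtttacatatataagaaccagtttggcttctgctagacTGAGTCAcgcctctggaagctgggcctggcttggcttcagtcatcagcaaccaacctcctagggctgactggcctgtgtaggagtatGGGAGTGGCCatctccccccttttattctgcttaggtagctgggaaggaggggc
Il18 (chr9:50554450-50554699, plus strand): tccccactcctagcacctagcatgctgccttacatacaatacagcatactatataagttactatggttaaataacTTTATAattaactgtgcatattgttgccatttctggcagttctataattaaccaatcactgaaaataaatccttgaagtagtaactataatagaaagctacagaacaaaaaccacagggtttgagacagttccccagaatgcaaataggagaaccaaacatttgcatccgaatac
Nlrp3 (chr11:59541319-59541568, plus strand): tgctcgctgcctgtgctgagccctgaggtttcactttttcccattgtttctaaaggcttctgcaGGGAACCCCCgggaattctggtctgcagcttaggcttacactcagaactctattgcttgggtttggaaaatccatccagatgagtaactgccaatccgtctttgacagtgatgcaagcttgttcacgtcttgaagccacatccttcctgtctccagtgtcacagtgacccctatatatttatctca
Nek7 (chr1:138619758-138620007, minus strand): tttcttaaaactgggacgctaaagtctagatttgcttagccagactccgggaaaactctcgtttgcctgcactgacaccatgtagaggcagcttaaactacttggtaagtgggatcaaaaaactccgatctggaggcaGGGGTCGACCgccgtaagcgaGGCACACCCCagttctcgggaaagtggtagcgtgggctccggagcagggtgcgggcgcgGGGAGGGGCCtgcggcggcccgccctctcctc

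Il1b and Il1a carried TATAAA at bases -31 to -26 and -32 to -27 from their starts, a motif that 12.4% of 32851 RefSeq promoters of the same length held on either strand. In Il18 the same letters lay on the other strand at -175 to -170. TGANTCA, held by 6.75% of promoters, was found in Il1a at -12 to -6 and in Il1rn at -141 to -135. GGGNNNNNCC matched Il1rn, Nlrp3 and Nek7, the last at 3 places, but 45.8% of promoters held it. GAGGAA, held by 23.3% of promoters, was found in Il1a at -41 to -36, next to its TATAAA, and at 3 places before the other Nlrp3 start, which is not printed. The C/EBP motif TTGCNNAA (9.56% of promoters) and the interferon response core GAAANNGAAA (2.98%) were not found in the windows printed. Of the members that did not pass and are not printed, Casp1 and Casp4 also matched GGGNNNNNCC, and Pycard and Casp1 matched GAGGAA. Nek7 held 17 CpG dinucleotides in its window, where the median over all promoters was 6, and the windows printed for the 5 other members held 1 to 4. The unprinted windows of Pycard, Casp1 and Casp4 held 2, 1 and 3, so a low CpG count was not particular to the members that rose. In all, 9 of 10 members were matched, with 13 starts, and Gsdmd has no entry. A match describes letters in a window and not a bound site.

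Ms4a7, which encodes a membrane protein of macrophages, was the check of the genotype labels, and its level went against them in the bulk table. The libraries labelled KO held 102, 117 and 136 normalized counts of Ms4a7, and those labelled wild type held 9.70, 25.8 and 23.3. All 3 libraries labelled KO therefore lay above all 3 labelled wild type, with a log2 fold change of 2.63 ± 0.37 (limma, adjusted p = 0.0149), a call that ended without KO replicate 2 (adjusted p = 0.0659) or KO replicate 3 (0.0559). The libraries labelled LD held 10.5, 7.60 and 9.32 normalized counts and those labelled PBS 62.2, 84.7 and 163, a log2 fold change of -3.26 ± 0.39 (adjusted p = 0.00428). In nuclei the level was lower in the KO library, at 0.622 UMIs per 10000 in the macrophage-like group against 1.25 in the WT library. The submitters also named the table labelled KO and wild type for lipid droplets, and the table labelled LD and PBS for Ms4a7. Every direction below therefore belongs to the libraries that carry a label, and which treatment or genotype they had cannot be told apart from these data.

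In the libraries labelled KO the interleukin 1 genes and the sensor Nlrp3 were higher than in those labelled wild type, while the adaptor, the caspases, the pore protein and Nek7 did not pass the test. Il1b, Il1a, Il1rn, Il18 and Nlrp3 rose, so that 5 of 10 members were called higher and 0 lower by limma with an adjusted p under 0.05. Nlrp3 reached 10 normalized counts only in the libraries labelled KO, so it entered the test through the group where it was high. Over the 15827 genes tested, 3.02% were called higher and 0.701% lower. EdgeR called 5 members, with 4.09% of all genes, and DESeq2 called 6, with 7.84%. In limma 3, 1 and 2 members were called without KO replicate 1, 2 or 3, where Nlrp3 was not tested, and 4, 3 and 3 without wild type replicate 1, 2 or 3. The median log2 fold change of the 10 members was 1.23, where the median of all genes tested was -0.02. In 9 of 10 members the 3 libraries labelled KO lay above the 3 labelled wild type, as did 12.4% of all genes, and the exception was Nek7. In bulk liver, more cells of a type and more RNA per cell cannot be told apart.

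Among the parts of the complex, the sensor Nlrp3 (mm10 chr11:59541568-59566956, plus strand) held 19.7, 34.3 and 50.7 normalized counts in the libraries labelled KO and 7.27, 5.16 and 6.12 in those labelled wild type. The groups did not overlap, the spread was wide within the libraries labelled KO, and the log2 fold change was 2.23 ± 0.42 (adjusted p = 0.0329). Nlrp3 reached the minimum of 10 normalized counts in 3 of 3 libraries labelled KO and in 0 of 3 labelled wild type, so it entered the test through the group where it was high. Its call ended without any 1 library labelled wild type (adjusted p = 0.066 to 0.0772), and without any 1 labelled KO it fell below the filter and was not tested.

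Pycard (chr7:127989708-127993867, minus strand), the adaptor, held 40.6, 41.4 and 72.6 normalized counts in the libraries labelled KO and 14.5, 33.6 and 19.6 in those labelled wild type. Its groups were apart, but by less than the test required, at a log2 fold change of 1.18 ± 0.38 (adjusted p = 0.149). It shares 485 exon bases with Gm45205 on the opposite strand, and since the strand setting of the counting is not given, reads of the pair cannot be told apart. Casp1 (chr9:5298517-5307265, plus strand), the protease of the complex, held 76.2, 150.1 and 122 normalized counts in the libraries labelled KO and 31.5, 74.9 and 63.7 in those labelled wild type. KO replicate 1 lay just above wild type replicate 2, and the log2 fold change was 1.06 ± 0.38 (adjusted p = 0.188).

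Casp4 (chr9:5308828-5336783, plus strand) held 62.7, 87.4 and 135 normalized counts in the libraries labelled KO and 20.6, 49.1 and 40.4 in those labelled wild type, a log2 fold change of 1.36 ± 0.39 (adjusted p = 0.111). The groups were apart, and this was the member whose call depended on the tool, since DESeq2 on the recovered reads gave an adjusted p of 0.0175 and edgeR did not call it. Gsdmd (chr15:75862327-75867408, plus strand) held 962, 918 and 1022 normalized counts in the libraries labelled KO and 672, 852 and 855 in those labelled wild type, a log2 fold change of 0.29 ± 0.12 (adjusted p = 0.237). Nek7 (chr1:138482875-138620141, minus strand) held 1075, 1112 and 1218 normalized counts in the libraries labelled KO and 1184, 958 and 1095 in those labelled wild type. Its groups overlapped, and the log2 fold change was 0.08 ± 0.11 (adjusted p = 0.763). In the authors' deposited table the adjusted p was under 0.05 for 9 of the 10 members, all but Nek7, where 15.4% of the genes with an adjusted p there did.

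Among the cytokines, Il1b (chr2:129364570-129371139, minus strand), the precursor of IL-1 beta, had the largest change of the 10 members. It held 214, 429 and 221 normalized counts in the libraries labelled KO and 13.3, 40.0 and 31.8 in those labelled wild type. The lowest library labelled KO was far above the highest labelled wild type, and the log2 fold change was 3.35 ± 0.44 (adjusted p = 0.0122). The call held without any 1 of the 6 libraries, at adjusted p from 0.0127 to 0.0487. The antisense gene Il1bos shares 25 exon bases with it.

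Il1a (chr2:129299610-129309972, minus strand) held 197, 223 and 183 normalized counts in the libraries labelled KO and 40.0, 77.5 and 67.3 in those labelled wild type. The groups were well apart, at a log2 fold change of 1.74 ± 0.25 (adjusted p = 0.016), though the call ended without KO replicate 2 (0.0717) or KO replicate 3 (0.0529). Gm14023 on the opposite strand shares 222 exon bases with Il1a. Il1rn (chr2:24336853-24351494, plus strand), the receptor antagonist, held 166, 142 and 153 normalized counts in the libraries labelled KO and 81.2, 60.7 and 50.2 in those labelled wild type. Agonists and antagonist thus rose together, Il1rn by a log2 fold change of 1.27 ± 0.21 (adjusted p = 0.0218). The call of Il1rn was the least settled of the cytokines: it ended without KO replicate 1 (0.059), 2 (0.0756) or 3 (0.0782), and without wild type replicate 2 (0.0619) or 3 (0.0528).

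Il18 (chr9:50554827-50581840, plus strand) held 516, 518 and 533 normalized counts in the libraries labelled KO and 314, 315 and 288 in those labelled wild type. Its change was the smallest of the 5 that rose and the most precise of the 10 estimates, with means of 522 ± 9.58 in the libraries labelled KO and 306 ± 15.5 in those labelled wild type (SD, n = 3 each). The log2 fold change was 0.77 ± 0.10 (adjusted p = 0.0105), and the call ended without KO replicate 2 (0.0523). Per kilobase of exon, the mean level of Il18 was 507 normalized counts in the libraries labelled KO and 296 in those labelled wild type, above every other member in the libraries labelled KO. Gsdmd, at 407 labelled KO and 334 labelled wild type, was above Il18 in wild type. Il1b stood at 151 labelled KO and 14.9 labelled wild type on that scale, close to Nek7 (154 labelled KO and 146 labelled wild type) in the libraries labelled KO only, while Nlrp3 was the lowest member in both groups, at 8.60 labelled KO and 1.53 labelled wild type.

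**Figure D1:**
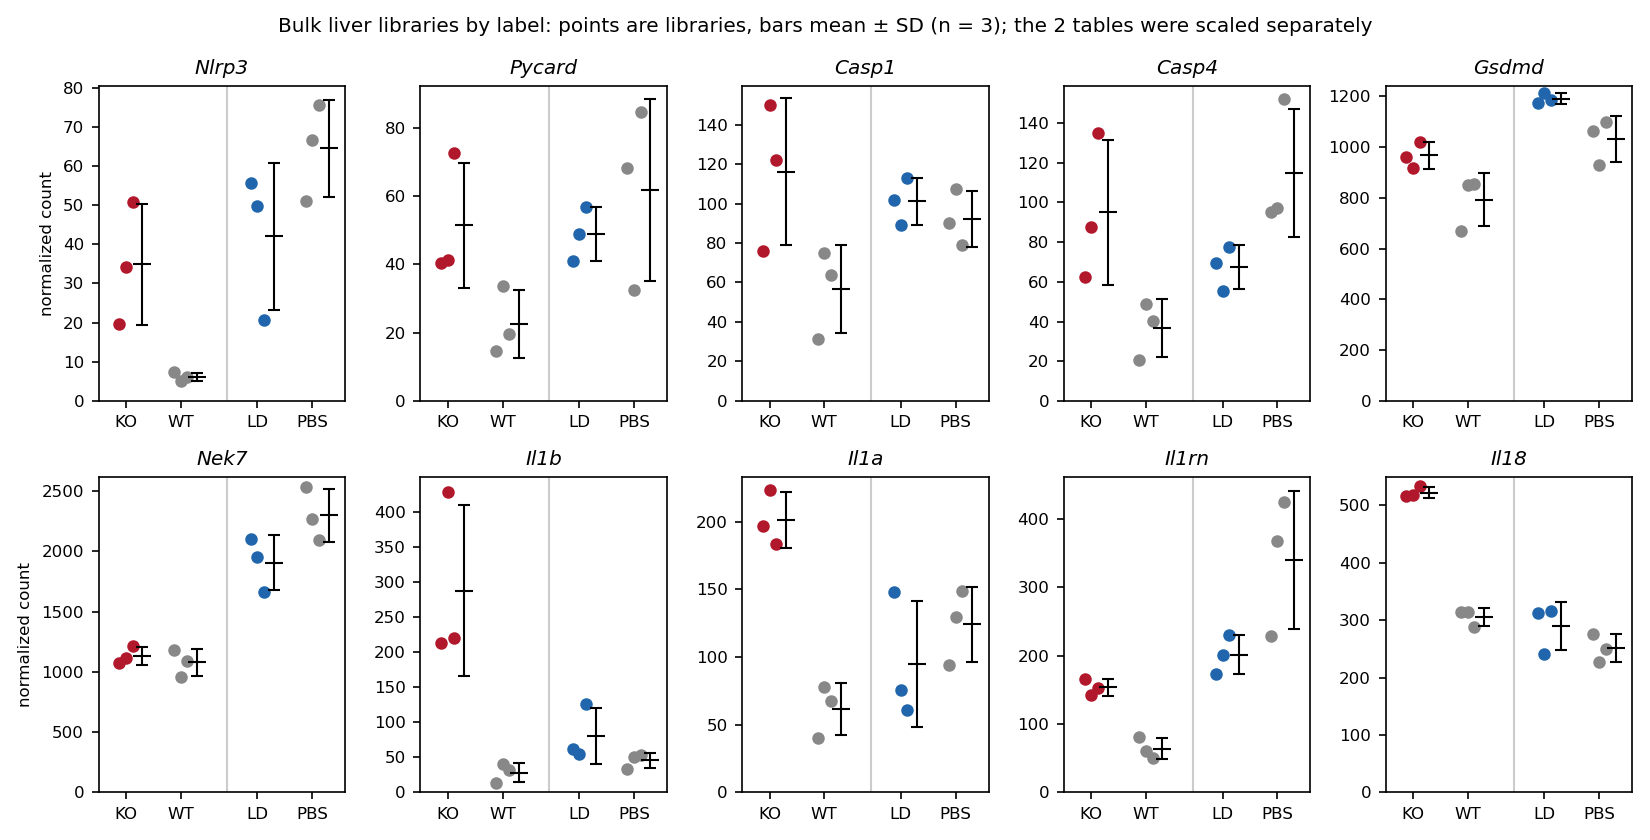
Normalized counts of the 10 members in each bulk library, with KO and WT of 1 table on the left and LD and PBS of the other on the right of each panel. Points are libraries and bars are mean ± SD (n = 3); Il1b, Il1a, Il1rn, Il18 and Nlrp3 show 3 points labelled KO above the 3 labelled wild type, and Nek7 shows overlap.

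Markers of myeloid cells moved with these members. Of 11 macrophage markers, 7 rose and 4 did not pass, with summed levels of 31306 to 53178 normalized counts in the libraries labelled KO and 5645 to 11289 in those labelled wild type. Of 8 monocyte markers, 3 rose and 5 did not pass, with sums of 9508 to 17940 labelled KO and 724 to 1187 labelled wild type. The 3 were Lyz2, Itgam and S100a4, of which Itgam reached 10 normalized counts in 2 and S100a4 in 0 of 3 libraries labelled wild type, so both entered the test through the libraries labelled KO. Of 10 neutrophil markers, 3 could be tested and 1 rose, the granulocyte growth factor receptor Csf3r, with sums over the list of 278 to 670 labelled KO and 69.1 to 124 labelled wild type. Ly6g, a defining neutrophil marker, was at 0 in all 3 libraries labelled wild type and in 1 labelled KO, and none of the markers of these 3 lists was at 0 in all 6. Outside the myeloid lists, limma called higher 1 of 9 endothelial markers (Cdh5, log2 fold change 1.60 ± 0.34, adjusted p = 0.0473). It also called 1 of 6 B or plasma cell markers tested (Bank1, 1.57 ± 0.21, adjusted p = 0.0137) and 1 of 7 periportal hepatocyte markers (Pck1, 1.20 ± 0.25, adjusted p = 0.0422). The ratio of the sums was 1.30 for endothelial and 2.33 for B or plasma cell markers. The sums differed by a ratio of 4.79 for macrophage, 14.6 for monocyte and 5.09 for neutrophil markers. Such sums weigh the highest genes most. In the monocyte list Lyz2 averaged 13385 normalized counts labelled KO and 804 labelled wild type. Marco averaged 14123 and 404 in the macrophage list, and Csf3r 405 and 72.4 in the neutrophil list. The median log2 fold change of the markers tested was 1.96 for macrophage, 2.26 for monocyte and 2.44 for neutrophil markers. The part of any of these marker lists in the changes of the members was not tested.

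In the libraries labelled LD none of the 10 members passed the test against those labelled PBS. Limma and edgeR called 0 of 10, DESeq2 called 1 (Il1rn), and 3 members (Casp4, Il1rn and Nek7) had an unadjusted p under 0.05, as did 19.7% of all genes tested. Of 14900 genes limma called 4.16% (1.95% higher and 2.21% lower), edgeR 4.05% and DESeq2 8.2%. Of the members, 2 had all 3 libraries labelled LD above those labelled PBS and 1 had them below, where 12.6% of all genes lay above and 12.8% below. The median log2 fold change of the members was -0.25, and that of all genes tested was 0.003.

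Il1b held 61.9, 54.3 and 126 normalized counts in the libraries labelled LD and 33.1, 50.5 and 53.7 in those labelled PBS. The groups were apart by a narrow margin and LD replicate 3 stood above the rest, at a log2 fold change of 0.73 ± 0.35 (adjusted p = 0.291). Il1rn held 173, 201 and 230 normalized counts in the libraries labelled LD and 229, 367 and 424 in those labelled PBS. The highest library labelled LD reached just past the lowest labelled PBS, so the groups overlapped slightly, and the log2 fold change was -0.72 ± 0.23 (adjusted p = 0.119). DESeq2 gave Il1rn an adjusted p of 0.0215 and the authors' deposited table gave 0.0198, the 1 member of 10 under 0.05 there, where 7.46% of genes were.

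Il1a held 148, 76.0 and 61.1 normalized counts in the libraries labelled LD and 94.3, 130 and 148 in those labelled PBS, so the groups overlapped (log2 fold change -0.46 ± 0.33, adjusted p = 0.486). Il18 held 313, 241 and 316 normalized counts labelled LD and 276, 227 and 250 labelled PBS, also overlapping (0.20 ± 0.15, adjusted p = 0.521). Nlrp3 held 55.6, 49.9 and 20.7 normalized counts labelled LD and 51.1, 66.7 and 75.6 labelled PBS. LD replicate 3, the highest library for Il1b, was the lowest for Nlrp3, whose log2 fold change was -0.70 ± 0.38 (adjusted p = 0.349). Pycard held 40.9, 48.8 and 56.9 normalized counts labelled LD, inside the range of 68.2, 32.5 and 84.7 labelled PBS (-0.24 ± 0.36, adjusted p = 0.769).

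Casp4 was the member with all 3 libraries labelled LD lower, at 69.3, 55.3 and 77.6 normalized counts against 95.3, 97.4 and 152 labelled PBS (log2 fold change -0.74 ± 0.25, adjusted p = 0.138). Casp1, its neighbour on chromosome 9, overlapped between groups, at 102, 89.0 and 113 normalized counts labelled LD and 90.3, 107 and 79.2 labelled PBS (0.14 ± 0.20, adjusted p = 0.762). The 2 caspase genes lie next to each other and had point estimates of opposite sign here, a difference between genes that was not tested. Gsdmd was at 1176, 1214 and 1185 normalized counts labelled LD, just above 1065, 930 and 1101 labelled PBS (0.21 ± 0.09, adjusted p = 0.257). Nek7 was at 2108, 1954 and 1663 labelled LD and at 2535, 2268 and 2098 labelled PBS, with LD replicate 1 and PBS replicate 3 level (-0.27 ± 0.11, adjusted p = 0.221). Of 11 macrophage markers 1 rose, Marco, with sums over the list of 15590 to 20518 labelled LD and 16689 to 25622 labelled PBS, and of 8 monocyte markers 2 fell, Ccr2 and Lyz2, with sums of 2974 to 3240 labelled LD and 3929 to 6085 labelled PBS. Of 10 neutrophil markers 5 were tested and limma called 0, with 2 at an unadjusted p under 0.05 and 1 called by DESeq2, and the sums were 238 to 454 labelled LD and 373 to 521 labelled PBS. The marker list with the largest shift was that of cholangiocytes, the cells that line bile ducts, of which 4 of 9 fell (Epcam, Krt19, Spp1 and Bicc1; 3 by edgeR and 5 by DESeq2) and 8 of 9 had all 3 libraries labelled LD below those labelled PBS. Its sums were 5337 to 8522 labelled LD and 11253 to 15282 labelled PBS, a ratio of 0.515. Of 9 stellate cell markers 2 fell, Col3a1 and Pdgfrb, with sums of 25686 to 28283 labelled LD and 30531 to 34104 labelled PBS, and of 7 pericentral hepatocyte markers 2 rose, with a ratio of the sums of 1.46. The part of these shifts in the values of the members and of the IL-1 responsive genes was not tested.

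**Figure D2:**
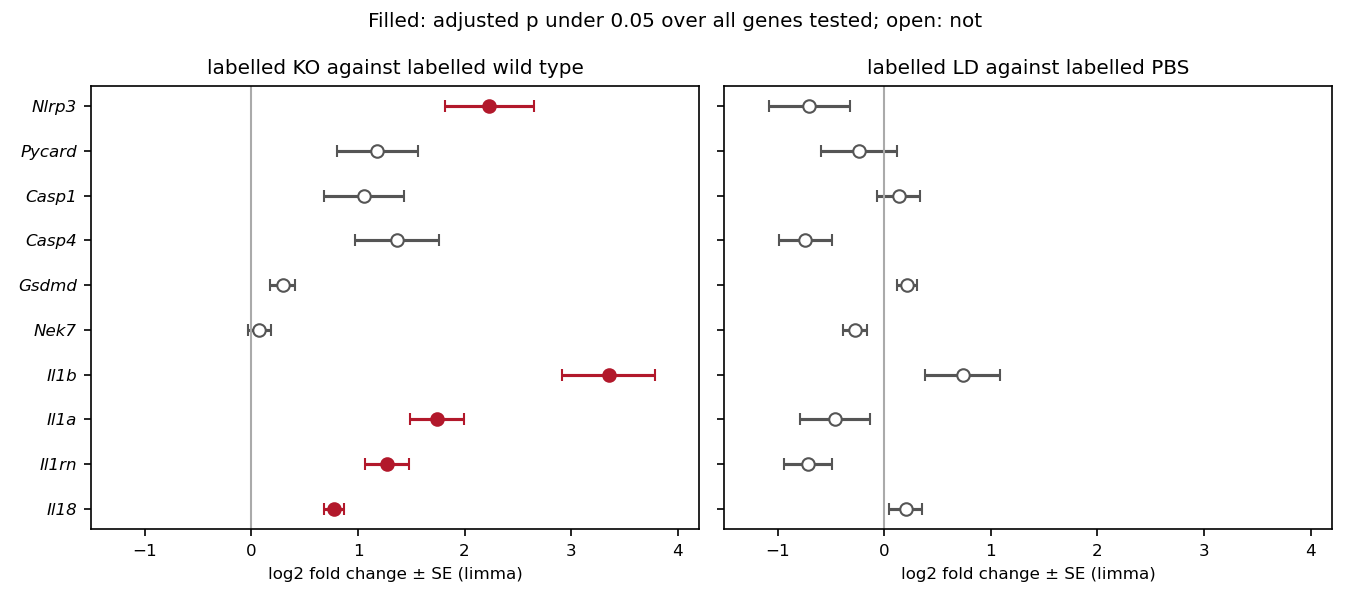
Log2 fold change ± SE of each member from limma, labelled KO over labelled wild type on the left and labelled LD over labelled PBS on the right, with filled points for an adjusted p under 0.05 over all genes tested. On the left 5 points are filled, from 0.77 for Il18 to 3.35 for Il1b, of which Nlrp3 entered the test only through the libraries labelled KO. On the right 0 are filled and the estimates run from -0.74 to 0.73.

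Around the members, 58 further genes of the pathway in 7 lists were read by role. Of 10 other inflammasome sensors tested between the libraries labelled KO and wild type, 2 rose and 8 did not pass. Mefv, which encodes the inflammasome sensor pyrin, averaged 158 ± 30.4 normalized counts in the libraries labelled KO and 9.93 ± 3.19 in those labelled wild type (SD, n = 3 each). That log2 fold change of 3.88 ± 0.29 (adjusted p = 0.00202) was larger than the estimate of any of the 10 members, and its call held without any 1 library. Naip1, which senses bacterial secretion needles for the NLRC4 inflammasome, rose by 2.07 ± 0.43 (adjusted p = 0.0449), a call that ended in each of the 6 fits without 1 library (0.0518 to 0.157) and without the filter (0.0518), and Naip2, Naip5 and Naip6 are close paralogs with which the counting may have split reads. Mefv and Naip1 each reached 10 normalized counts in 3 of 3 libraries labelled KO and 1 of 3 labelled wild type, so they too entered the test through the libraries where they were high.

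Of 8 regulators of NLRP3 activity, 2 rose and 6 did not pass. Gbp5, a guanylate-binding protein that promotes NLRP3 assembly, rose by 2.07 ± 0.44 (adjusted p = 0.0476) and the potassium channel gene Kcnk6 by 1.87 ± 0.27 (adjusted p = 0.0151). The call of Gbp5 ended without KO replicate 1 (0.0851), 2 (0.144) or 3 (0.152) or wild type replicate 3 (0.0941), and that of Kcnk6 without KO replicate 2 (0.0698) or 3 (0.0607). Limma, edgeR and DESeq2 called 0 of 5 further caspases and membrane rupture genes, of the 1 other ligand tested (Il33) and of 4 receptors and decoys for IL-1 and IL-18, and these 3 lists held 0 genes at an unadjusted p under 0.05, where 18.7% of all genes tested were. Among them Il1r1, the signalling receptor, averaged 1027 ± 248 normalized counts labelled KO and 877 ± 131 labelled wild type, and Il18bp, the secreted inhibitor of IL-18, averaged 665 ± 142 labelled KO and 513 ± 141 labelled wild type (SD, n = 3 each).

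Below the receptor, 1 of 10 signalling genes rose: Irak3, the kinase-like inhibitor of the MyD88 pathway, averaged 197 ± 57.9 normalized counts labelled KO and 23.8 ± 9.62 labelled wild type (SD, n = 3 each), a log2 fold change of 3.04 ± 0.37 (adjusted p = 0.0104). Its call held without any 1 library, and the activating parts Myd88 (0.33 ± 0.15, adjusted p = 0.295) and Irak4 (0.38 ± 0.16, adjusted p = 0.256) did not pass. Of 8 IL-1 responsive genes tested, 3 rose and 5 did not pass. Those 5 went both ways, with estimates of 0.94 for Orm2 and 0.52 for Lcn2, and of -0.24 for Saa1, -0.87 for Saa2 and -1.46 for Saa3. Saa3 held 3405, 1654 and 3555 normalized counts labelled KO, all below the 3625, 7165 and 16186 labelled wild type (adjusted p = 0.191 by limma). Cxcl1, which encodes a neutrophil attractant, rose by 2.85 ± 0.20 (adjusted p = 0.00202) and Nfkbiz, an NF-kappaB cofactor, by 1.69 ± 0.21 (adjusted p = 0.0106), both also without any 1 library. Zc3h12a, an RNase gene that limits inflammatory transcripts, rose by 0.88 ± 0.16 (adjusted p = 0.0317), a call that ended in each of the 6 fits without 1 library (0.0566 to 0.116). Il6 and Ptgs2 were too low to test, and the acute phase gene Saa1 ranged from 9836 to 93486 normalized counts among libraries labelled KO, against 34846 to 39034 labelled wild type.

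In the libraries labelled LD, 1 of 11 other sensors rose: Nlrp6, a sensor of epithelial tissues, averaged 6364 ± 351 normalized counts labelled LD and 4028 ± 137 labelled PBS (SD, n = 3 each), a log2 fold change of 0.66 ± 0.08 (adjusted p = 0.00422) that stayed past the threshold without any 1 library. Of 6 receptors and decoys 1 rose, Il1rap, the shared receptor chain, by 0.52 ± 0.11 (adjusted p = 0.0365). Of 8 IL-1 responsive genes 4 fell and 4 did not pass: Saa2 fell by 0.90, Orm2 by 0.77 and Lcn2 by 0.77 on the log2 scale, secreted acute phase proteins, and Cxcl1 by 0.76 (adjusted p = 0.0187 to 0.0403). The calls of Il1rap, Saa2, Orm2 and Lcn2 each ended without LD replicate 1 or 2 or PBS replicate 3, that of Il1rap also without PBS replicate 2 and those of the other 3 also without PBS replicate 1 (adjusted p = 0.0548 to 0.148). The call of Cxcl1 ended in 5 of 6 such fits, all but that without LD replicate 3 (0.0799 to 0.136). Limma, edgeR and DESeq2 called 0 of 8 regulators, of 5 further caspases and of 10 signalling genes, with 1, 1 and 0 genes at an unadjusted p under 0.05. Il33 was called by DESeq2 but not by limma or edgeR.

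**Figure D3:**
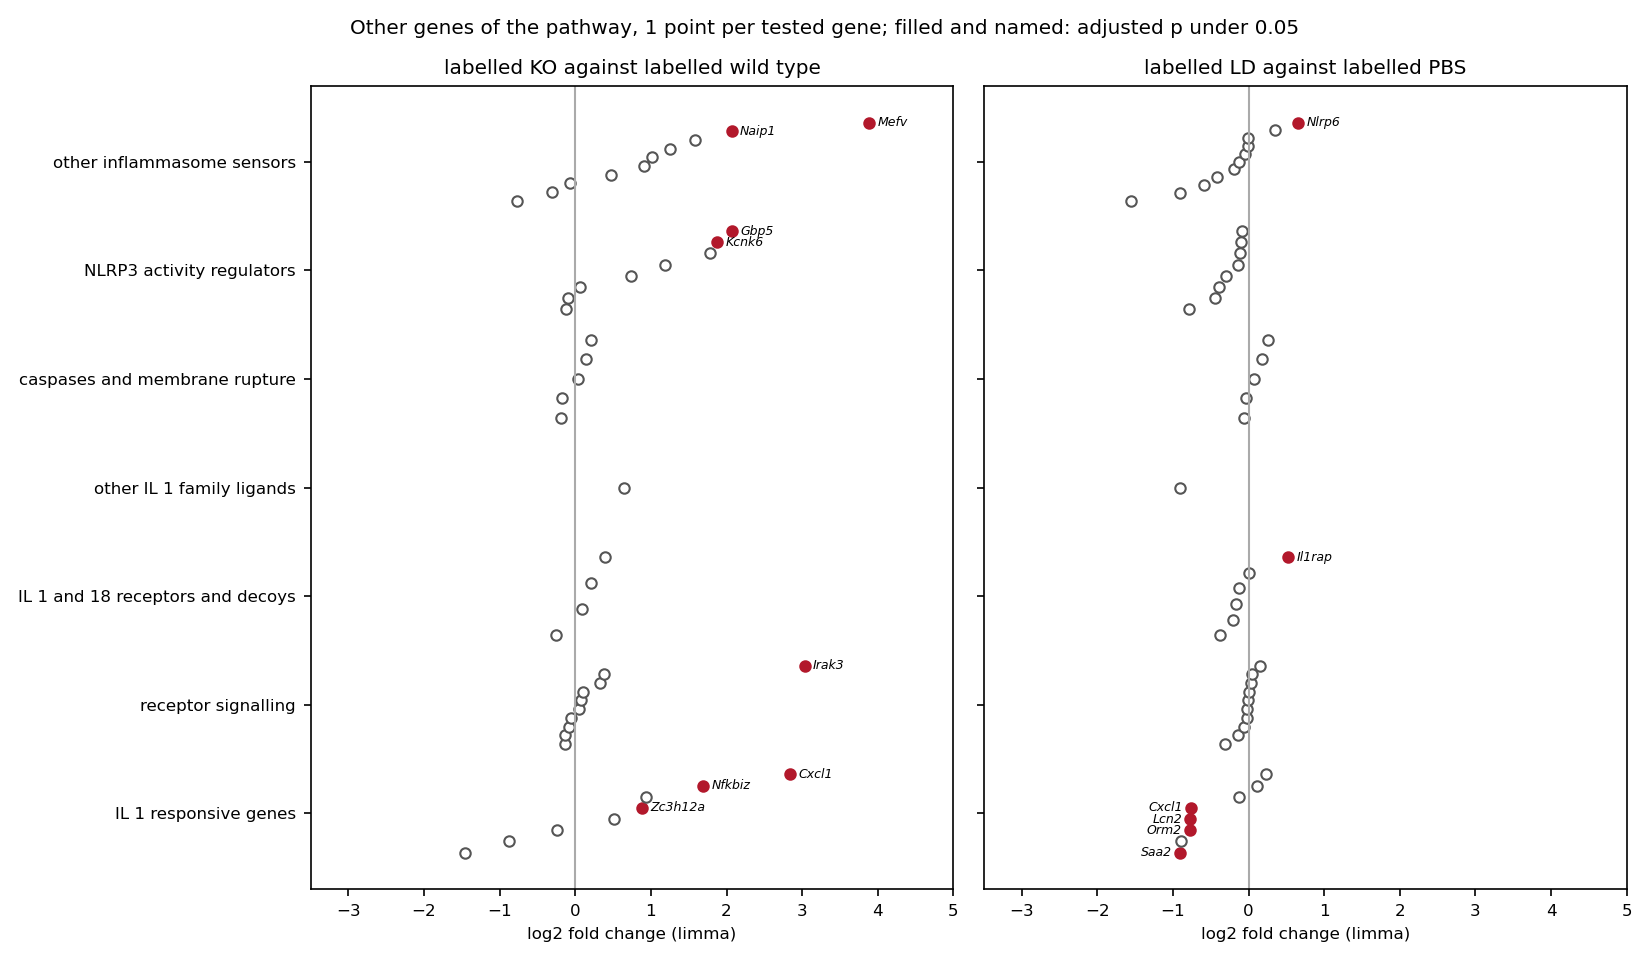
Log2 fold change from limma of each tested gene in 7 pathway lists, labelled KO over labelled wild type on the left and labelled LD over labelled PBS on the right. Filled, named points passed at an adjusted p under 0.05: 8 genes rose on the left, led by Mefv at 3.88, and on the right Nlrp6 and Il1rap rose and 4 IL-1 responsive genes fell.

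The nuclei placed the members in different cell types. The deposited table gives mean UMIs per 10000 for 12 numbered groups in each genotype, and the groups are called here by marker genes, such as macrophage-like for group 3, in which 11 of 11 macrophage markers were highest, and neutrophil-like for group 5 (8 of 9 neutrophil markers). Since each genotype is 1 library, the values have no replicate error and no test. The mean level of Il1b was by far the highest in the neutrophil-like group, at 23.0 UMIs per 10000 in the KO library and 16.5 in the WT library. This is 95.0% of the sum of the 12 group means, with each group counted alike. The number of nuclei per group was not used, so it is not the share of the Il1b transcripts in liver. The mean was 34.9 times that of the next group. That next group was macrophage-like, at 0.685 KO and 0.447 WT, and then came the dendritic cell-like group (0.260 KO and 0.241 WT) and the unnamed group 8 (0.272 KO and 0.0988 WT), whose values overlap. In each of the other 8 groups Il1b was at most 0.0280, and the hepatocyte-like groups held at most 0.00378.

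Nlrp3 had the same order of groups at the top but a much smaller gap. It stood at 1.82 KO and 1.58 WT in the neutrophil-like group, at 1.02 KO and 0.967 WT in the macrophage-like group, at 0.397 KO and 0.223 WT in the dendritic cell-like group and at 0.372 KO and 0.227 WT in group 8. The last 2 overlap, and no other group was above 0.0556. Il1rn was also highest in the neutrophil-like group, at 1.44 KO and 1.43 WT, followed by the macrophage-like group (0.337 KO and 0.247 WT) and the cholangiocyte-like group (0.0989 KO and 0.380 WT), whose values overlap with each other.

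Il1a differed from Il1b in place: it was highest in the endothelial-like group, at 1.07 KO and 0.802 WT, then in the macrophage-like group (0.513 KO and 0.311 WT) and group 8 (0.429 KO and 0.345 WT), and it was listed at 0 in both genotypes of the neutrophil-like group. The macrophage-like and unnamed values overlap, and the remaining groups held at most 0.0322. Il18 was highest in the macrophage-like group (1.31 KO and 0.992 WT), followed by the mesothelial-like (0.858 KO and 0.618 WT) and dendritic cell-like groups (0.535 KO and 0.282 WT). Il18 was the cytokine with the clearest level in hepatocyte-like nuclei, at 0.197 KO and 0.196 WT in the pericentral group and 0.196 KO and 0.174 WT in the periportal group, where Il1b, Il1a and Il1rn were at most 0.0246.

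Of the parts of the complex, Casp1 was highest in the macrophage-like group (0.696 KO and 0.334 WT), with overlapping values in the neutrophil-like group (0.308 KO and 0.608 WT), and at most 0.000915 in the hepatocyte-like groups. Pycard was low wherever it was seen: it was at 0.264 KO and 0.239 WT in the T or NK cell-like group and 0.300 KO and 0.133 WT in the macrophage-like group, which overlap, and it was listed at 0 in both genotypes of the neutrophil-like group. Casp4 was spread over non-hepatocyte groups, with overlapping values in the neutrophil-like (3.08 KO and 1.10 WT), mesothelial-like (1.44 KO and 2.42 WT) and endothelial-like groups (1.79 KO and 1.66 WT). Gsdmd was highest in the neutrophil-like group (1.14 KO and 1.17 WT) and second in the macrophage-like group (0.707 KO and 0.458 WT). Nek7 was the member without a preferred group: its means over both genotypes ran from 2.09 in the neutrophil-like to 3.72 in the T or NK cell-like group, a range of 1.78 times.

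**Figure D4:**
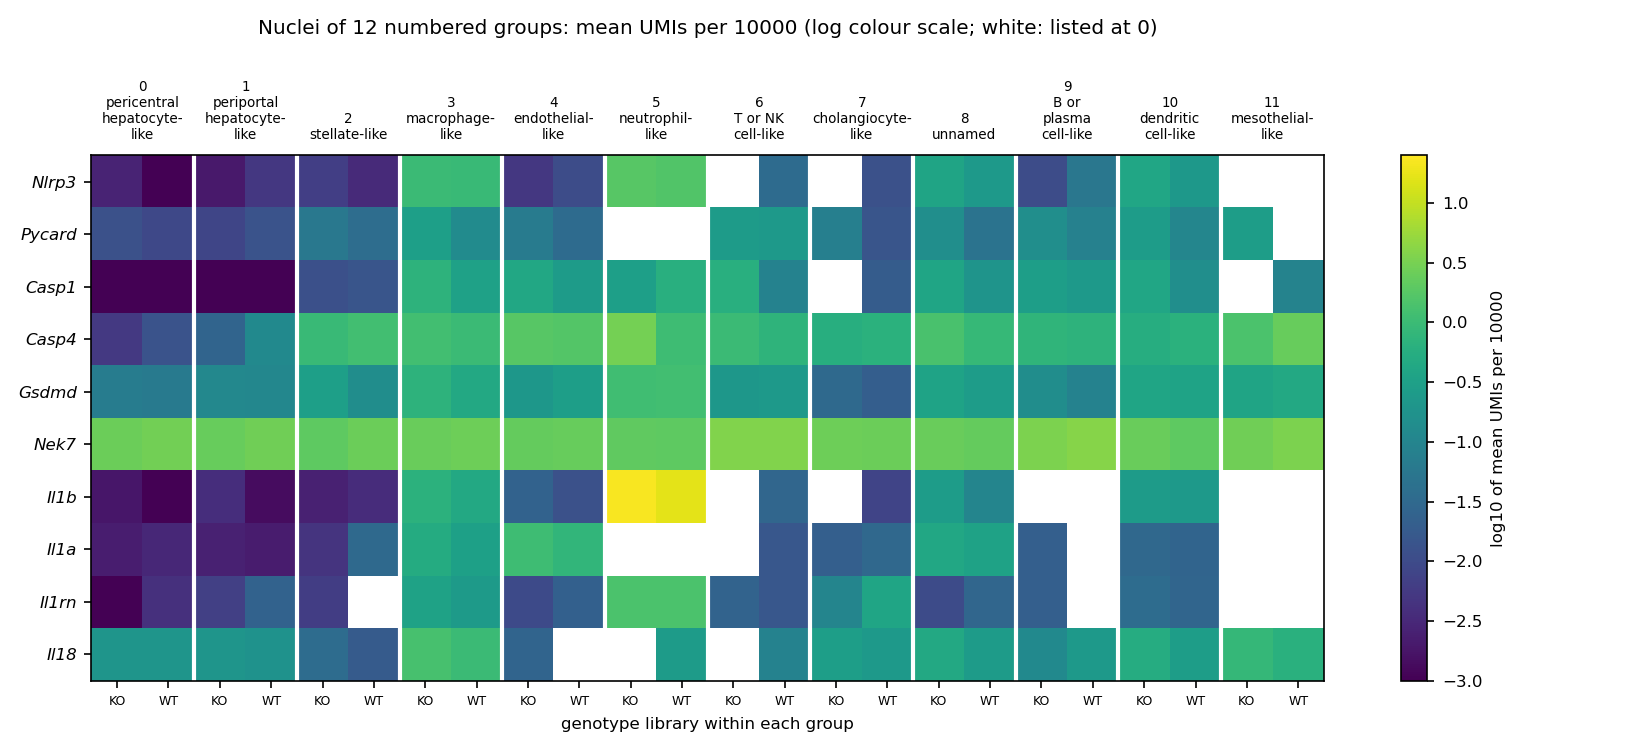
Mean UMIs per 10000 of the 10 members in 12 numbered groups of nuclei, with KO left of WT in each group, on a log10 colour scale that is floored at -3 and shows values listed at 0 in white. Il1b stands out in neutrophil-like nuclei (23.0 KO and 16.5 WT), Il1a in endothelial-like nuclei (1.07 KO and 0.802 WT), and Nek7 is even across groups.

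The neutrophil-like group was the thinnest profile, with 6417 genes above 0 in the KO library and 8039 in the WT library, where the macrophage-like group had 16616 in the KO library and 16653 in the WT library. A gene listed at 0 there may be below what that group can show. Hepatocyte markers were above 0 in groups of other cell types: the summed level of hepatocyte markers was 97.2 KO and 34.9 WT UMIs per 10000 in the neutrophil-like group, 35.5 KO and 15.8 WT in the macrophage-like group, and 153 KO and 77.0 WT in the periportal group itself. Their part in the members' values was not tested. The hepatocyte-like groups held less Il1b, Nlrp3 and Casp1 than the myeloid groups by more than the difference between genotypes.

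Between genotypes, 9 of 10 members were higher in the KO library of the macrophage-like group, all but Nek7, where 52.0% of the genes above the median level of that group were. With a small pseudocount, 2 of these passed a 2-fold difference: Pycard at 2.23-fold and Casp1 at 2.08-fold, where 3.15% of those genes passed it upward. Il1b was 1.53-fold, Il1a 1.64-fold, Gsdmd 1.54-fold, Il1rn 1.36-fold, Il18 1.32-fold, Casp4 1.20-fold, Nlrp3 1.05-fold and Nek7 0.914-fold in KO over WT. The same count of 9 of 10 members higher in KO was seen in group 8, all but Il1rn, and in the dendritic cell-like group, all but Casp4. There 8 and 7 members were above the median level, and the share over all genes was not computed. The count was thus not particular to macrophage-like nuclei. Of the 5 members that rose in the bulk libraries labelled KO, none passed 2-fold in macrophage-like nuclei, and the bulk and nuclei libraries carry the same genotype labels while Ms4a7 differs in direction between them.

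In the neutrophil-like group 7 members were above the median level. KO over WT was 1.39-fold for Il1b, 1.14-fold for Nlrp3, 1.06-fold for Nek7, 0.977-fold for Gsdmd and 0.601-fold for Casp1, and Il1rn was level. Il18 was listed at 0 in KO and at 0.260 in WT, below that level, and Il1a and Pycard were listed at 0 in both genotypes. Casp4 was 2.58-fold higher there, but 20.1% of genes in that group passed 2-fold upward. The dendritic cell-like group had Casp1 at 2.43-fold, where 10.9% of genes passed upward, and group 8 had Il1b at 2.63-fold, where 5.18% did. Casp1 was 5.88-fold higher in the T or NK cell-like group, at 0.589 KO and 0.0883 WT, where 5.48% of genes passed upward, and Gsdmd was 2.14-fold higher in the stellate-like group, where 4.57% did. Casp4 was lower in the periportal hepatocyte-like group, at 0.0260 KO and 0.121 WT (3.44% of genes passed downward), and Il1rn was lower in the cholangiocyte-like group (2.63% passed downward). In all, 63 of 120 pairs of a member and a group were above the median level, and 7 were higher and 2 lower past 2-fold. With 1 library per genotype these folds have no replicate check.

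**Figure D5:**
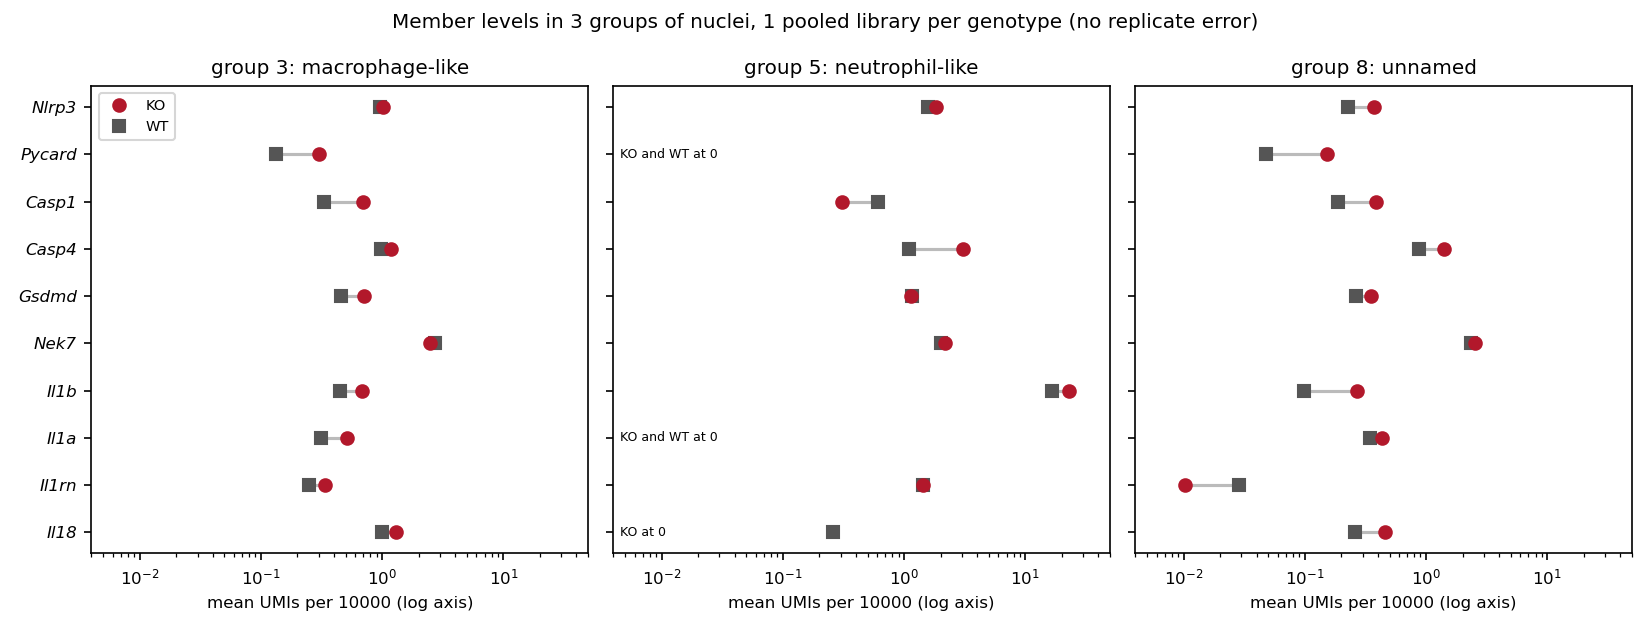
Mean UMIs per 10000 of the 10 members (log axis) in the macrophage-like, neutrophil-like and unnamed groups of nuclei, with circles for the KO library and squares for the WT library and no error bars, since each genotype is 1 library. In macrophage-like nuclei 9 members have the KO circle to the right, with the widest gaps in Pycard and Casp1; in neutrophil-like nuclei the widest gap among the 7 members above the median level is in Casp4, and Il18 is at 0 in KO and 0.260 in WT.

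Across the 24 columns of nuclei, the genes whose pattern was most like that of Il1b, out of 10951 compared by Pearson's r of log2 values, were Csf3r (0.942), Sirpb1c (0.934) and Pilrb1 (0.926), each highest in the neutrophil-like group. For Nlrp3 they were Csf2rb (0.957), Gm21188 (0.948) and Cd300lf (0.943), of which Gm21188 was highest in the macrophage-like group and the other 2 in the neutrophil-like group. The columns come from 2 libraries and share their depth by group, so these are descriptions. Of the receptors of the cytokines, Il1r1 was highest in the stellate-like group (5.97 KO and 8.18 WT) and next in the endothelial-like group (mean of both genotypes 4.59), where Il1a was highest. Il18r1 was highest in the mesothelial-like group (5.81 KO and 6.43 WT), the second highest group for Il18, and Il18rap, the other chain of the IL-18 receptor, had its highest mean in the neutrophil-like group (2.67 KO and 5.15 WT). That rank of Il18rap came only through the WT library, since the KO value was below the mean of the next group, T or NK cell-like (2.76). The decoy receptor Il1r2 was highest in the neutrophil-like group (1.02 KO and 2.32 WT), as was the shared chain Il1rap (8.91 KO and 4.32 WT). Irak3 also had its highest mean there (5.25 KO and 0.651 WT), but only through the KO library. Its WT value was below the mean of the next group, B or plasma cell-like (1.23). Il18bp was highest in the macrophage-like group (0.812 KO and 0.572 WT).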

How the data were processed

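Bulk values are signal: gene counts that the authors divided by a size factor per library, as read from the deposited values. Every value was a whole multiple of 1 step in its library (100%, tolerance 0.01), so whole reads were recovered. The log2 fold changes and p-values of the authors' deposited table came from DESeq2, per the submitters' processing notes. Nuclei values are signal too, deposited as mean UMIs scaled to 10000 per group and genotype, from Cell Ranger and Seurat 4.0.1 per those notes, which also name STAR and FastQC; the counter, its strand setting, the annotation and other versions are not given in the sources used here. Positions are from GENCODE on mm10.

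Genes that reached 10 normalized counts in at least 3 of 6 libraries were tested with limma 3.58.1 in R 4.3.3 (trend, 2-sided) after adding 1 and taking log2, and p-values were adjusted by Benjamini-Hochberg over all genes tested (threshold 0.05); fold changes on that scale understate the change of low genes. Alternatives were edgeR 4.0.16 and DESeq2 1.42.0 on recovered reads, TMM scaling, a pseudocount of 5, no filter, a replicate block and each library left out. The fit was tested on simulated data. The chi-square between replicate libraries was 18.3 or more per degree of freedom, so none is a copy of another. The labels do not say that they are separate animals, so p-values measure the spread between these libraries, which may be technical. The 2 tables were scaled separately and are compared only within themselves. Depth of the nuclei is unknown, and doublet treatment is not stated.

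Groups of nuclei were named where at least 3 markers and 50% of a type's markers were highest, a rule set after the table was examined. KO over WT in nuclei used genes above the 50th percentile of a group and a pseudocount at its 5th percentile; 4 entries with repeated names were left out. Genes named are the members, Ms4a7, up to 4 called genes per role list, and the 3 most like Nlrp3 and Il1b; other genes named were chosen after their values were seen. The members and lists were chosen with earlier results of these data known. Il36g was matched as Il1f9.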

Additional observations from a re-analysis of the deposited data

How the results depend on the processing

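Genes called labelled KO against labelled wild type numbered 589, with 1241 in DESeq2 and 108 to 479 without 1 library: 479, 108 and 148 without KO replicate 1, 2 or 3 and 317, 323 and 307 without wild type replicate 1, 2 or 3. Members called numbered 5, with 1 to 4 without 1 library, 5 in edgeR and 6 in DESeq2. Genes called labelled LD against labelled PBS numbered 620, with 1222 in DESeq2 and 135 to 1205 without 1 library: 228, 206 and 1205 without LD replicate 1, 2 or 3 and 410, 135 and 169 without PBS replicate 1, 2 or 3. Members called there numbered 0, with 1 (Il1rn) in DESeq2 and 0 to 1 without 1 library (1 without PBS replicate 1). Without 1 library Nek7 ran from -0.0067 (without wild type replicate 2) to 0.15 labelled KO, and Pycard from -0.64 to 0.040 (without PBS replicate 3) labelled LD, never called. Pairs past 2-fold in nuclei numbered 9, with 2 above the 75th percentile and 21 at a fold of 1.5. The causes were not tested; fits without 1 library also have fewer samples. Of 117 member values labelled KO under alternatives, 102 kept sign and side of the threshold, 11 lost and 3 gained the call and 1 turned; of 120 labelled LD, 116 kept both, 3 gained it and 1 turned.

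Whether the numbers of replicates pair the libraries was not settled. Same-numbered libraries had correlations of 0.119, -0.0299 and -0.0178 labelled KO with wild type and 0.048, -0.0434 and 0.132 labelled LD with PBS. Differently numbered libraries had correlations from -0.0672 to 0.0883 and from -0.167 to 0.156. Deviations from a mean of 3 libraries are tied to each other, so these correlations cannot exclude pairing. With the replicate block limma called 822 genes labelled KO and 793 labelled LD, and 7 members labelled KO (Casp1 and Casp4 added) and 1 labelled LD (Il1rn). With 3 libraries per group and low levels of Nlrp3 and Pycard, precision is limited.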
